A study of Homo sapiens with 12 samples.

Results

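The replication-dependent and linker histone genes were taken as the genes whose current symbol begins with H1-, H2AC, H2BC, H3C or H4C. Of the 95 human symbols of this kind in RefSeq, 67 had a probe set of their own among the 18239 genes of the array, and 49 of these 67 were tested after a filter on low levels. The 67 genes comprised 11 of the linker histone class H1, 15 of H2A, 19 of H2B, 10 of H3 and 12 of H4. The large cluster on chromosome 6, called HIST1, held 54 of them, the HIST2 cluster on chromosome 1 held 5, the HIST3 cluster held 2, and 6 lay elsewhere. Of the 67, 3 are not protein-coding in RefSeq, namely H1-10-AS1, H1-9P and H2BC20P. Each gene is given by the probe set with the highest mean over the 12 arrays, and levels are log2 values of the deposited table.

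Core histones H2A, H2B, H3 and H4 form the protein spool around which DNA winds in the nucleosome, and linker histones of the H1 class bind the DNA between spools. Most of the genes listed here are transcribed in S phase, and their mRNAs end in a stem-loop instead of a poly-A tail. Several of them, H2BC5, H2BC12, H2BC21, H2AC6 and H1-2 among them, are also known to give polyadenylated transcripts outside S phase. Whether the labelling was primed on poly-A tails is not given in the sources used here. H1-10 is a linker variant made independently of DNA replication.

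The samples were 3 human lymphoma cell lines of the ABC-DLBCL type (diffuse large B cell lymphoma resembling activated B cells), OCI-LY3, OCI-HBL1 and OCI-LY10, which the series title describes as carrying a MYD88 mutation. Each line gave 1 array per treatment. Combo cells received the BET bromodomain inhibitor CPI203 at 500 nM and an IRAK inhibitor, IRAKi, at 50 µM, and CPI203 cells and IRAKi cells received 1 of these agents at the same dose. Control cells received neither. BET inhibitors displace bromodomain proteins from acetylated histones, and IRAK kinases carry signals from Toll-like receptors and MYD88. The labels give 24 h for Combo, CPI203 and Control arrays and 6 h for IRAKi arrays, while the treatment protocol gives 18 h of CPI203 and 6 h of IRAKi, so time and agent cannot be told apart for IRAKi. The 3 lines served as the replicates of each treatment, and nothing in the labels names separate cultures. The line is a term of the model, so the p-values of the treatment comparisons measure how far treatment differences vary between these 3 lines. All 7 B cell markers on the array lay above the filter level on every array, between 6.37 and 13.19. Of 15 markers of other cell types on the array, 2 lay above it on every array and 4 on none. EPCAM and KRT8 were each above it on 4 arrays and reached 6.92 and 6.82.

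Promoters of 5 H2A and H2B genes with large changes are shown because such genes often start back to back and share 1 control region, and those of the linker genes H1-2 and H1-10 are shown beside them. The sequences are from RefSeq on GRCh38.p14, read 5′ to 3′ on the strand of the gene, and cover up to 250 bases before its start, ending earlier where the partner gene starts. Capitals mark exact matches, on either strand, to the octamer ATTTGCAT (reverse ATGCAAAT), the TATA box TATAAA (reverse TTTATA) and the CCAAT box CCAAT (reverse ATTGG). Where matches overlap, the capitals run on.
H2AC6, chr6:26123927-26124171, plus strand, shared with H2BC4: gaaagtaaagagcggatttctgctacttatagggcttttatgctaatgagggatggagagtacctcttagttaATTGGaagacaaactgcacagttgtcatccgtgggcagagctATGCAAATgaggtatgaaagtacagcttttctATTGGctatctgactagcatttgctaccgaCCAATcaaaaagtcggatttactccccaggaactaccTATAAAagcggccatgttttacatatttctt
H2BC21, chr1:149886683-149886917, minus strand, shared with H2AC20: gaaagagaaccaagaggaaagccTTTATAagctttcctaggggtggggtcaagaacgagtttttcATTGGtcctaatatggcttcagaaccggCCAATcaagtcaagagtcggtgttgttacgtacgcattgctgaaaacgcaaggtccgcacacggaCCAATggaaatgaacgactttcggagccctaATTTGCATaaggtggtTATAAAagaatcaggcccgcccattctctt
H2BC5, chr6:26157871-26158120, plus strand: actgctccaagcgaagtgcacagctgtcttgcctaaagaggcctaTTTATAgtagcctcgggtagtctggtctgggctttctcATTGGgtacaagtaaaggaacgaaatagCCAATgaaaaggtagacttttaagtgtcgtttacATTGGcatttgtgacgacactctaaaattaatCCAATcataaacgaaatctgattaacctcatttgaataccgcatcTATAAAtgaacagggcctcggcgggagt
H2BC12, chr6:27146859-27147108, minus strand: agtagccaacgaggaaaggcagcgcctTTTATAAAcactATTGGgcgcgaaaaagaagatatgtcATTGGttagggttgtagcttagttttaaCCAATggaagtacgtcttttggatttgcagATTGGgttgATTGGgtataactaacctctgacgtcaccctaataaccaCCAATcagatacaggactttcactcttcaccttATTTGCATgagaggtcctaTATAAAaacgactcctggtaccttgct
H2BC8, chr6:26216689-26216920, minus strand, shared with H2AC8: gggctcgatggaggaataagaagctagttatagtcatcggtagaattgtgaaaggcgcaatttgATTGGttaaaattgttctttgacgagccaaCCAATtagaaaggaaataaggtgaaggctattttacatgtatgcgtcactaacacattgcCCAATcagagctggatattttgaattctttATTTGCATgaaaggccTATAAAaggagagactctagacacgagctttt
H1-2, chr6:26056471-26056720, minus strand: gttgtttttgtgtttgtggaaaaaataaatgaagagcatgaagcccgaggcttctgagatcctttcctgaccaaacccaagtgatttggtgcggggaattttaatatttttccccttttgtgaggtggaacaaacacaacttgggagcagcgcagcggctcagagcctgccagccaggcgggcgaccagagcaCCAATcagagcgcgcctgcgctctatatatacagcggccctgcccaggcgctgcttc
H1-10, chr3:129316287-129316536, minus strand: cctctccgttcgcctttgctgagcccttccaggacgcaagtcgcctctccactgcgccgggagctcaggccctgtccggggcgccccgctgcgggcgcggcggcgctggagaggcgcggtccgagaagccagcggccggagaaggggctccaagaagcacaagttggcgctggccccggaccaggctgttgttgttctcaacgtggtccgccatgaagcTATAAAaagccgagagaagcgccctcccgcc

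In these windows the octamer of H2BC21 and of H2BC12 began 46 bases before the start, and that of H2BC8 began 48 bases before it. A TATA box followed nearer the start in each of the 3. The window of H2BC5 held 2 TATA boxes, 1 on each strand, and 4 CCAAT boxes and no exact octamer. Those of H1-2 and H1-10 held none either. For counts over genes, the full 250 bases before each start were searched. Such a window was found for 59 of the 67 genes. The octamer occurred in 11 of 14 H2A windows and 14 of 18 H2B windows, in 1 of 8 H3 windows, and in 0 of 9 H1 and 0 of 10 H4 windows, against 2.03% of 27305 genes. The single H3 match belongs to H3C4, whose matching window in the RefSeq table has the same coordinates as that of H2AC7. TATAAA occurred in 38 of the 59 windows against 13.0% of all genes, and CCAAT in 51 of 59 against 37.0%, with 3 of 10 for H4. Among H2A genes the octamer was found for 6 of 7 genes that rose with Combo and for 5 of 7 others, and among H2B genes for 9 of 11 that rose and for 5 of 7 others. These matches describe letters in a window and are not evidence of binding.

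Many histone genes were higher with the combined treatment. Against Control, 31 of the 49 tested genes were higher with Combo and 0 were lower at an adjusted p under 0.05, when 15.4% of all 13120 tested genes were called higher and 16.7% lower. The median change of the 49 was 0.97 (log2), and that of all tested genes was -0.00312. With CPI203 alone, 10 of 49 were higher and 0 lower, against 6.92% of all genes called higher and 6.21% lower, with a median change of 0.48. All 10 were also among the 31 called with Combo. The other 21 were called with Combo and not with CPI203. In these bulk samples, more cells that express a gene and more RNA per cell cannot be told apart.

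**Figure D1:**
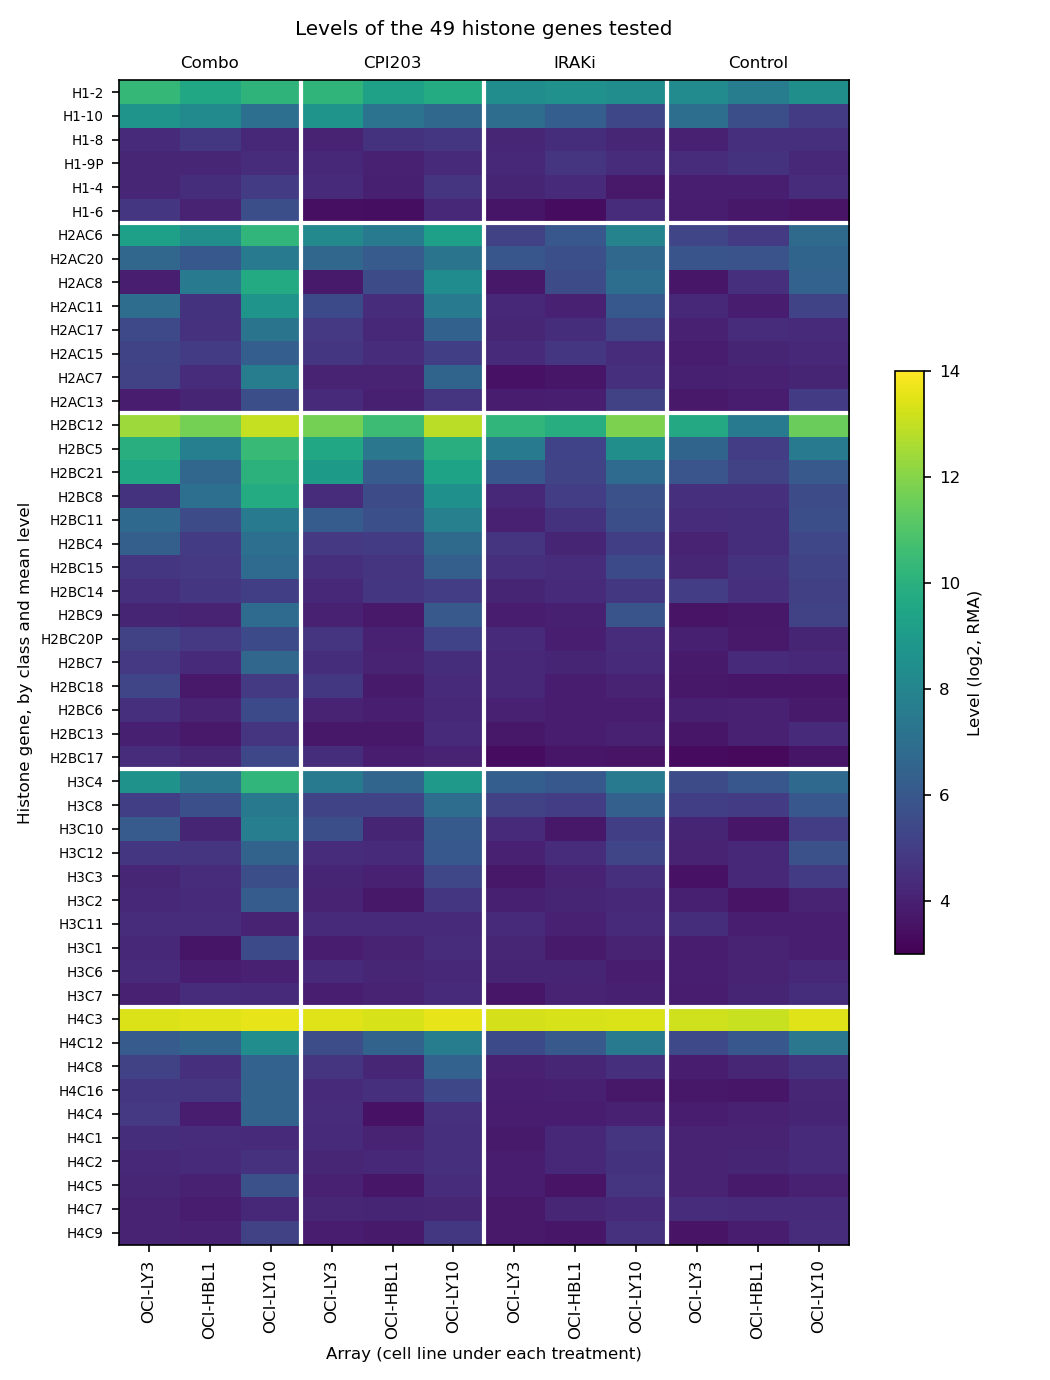
Level (log2, RMA) of the 49 tested histone genes, in rows by class and mean level, on each of the 12 arrays, in columns by treatment with the 3 lines side by side. The columns of Combo and CPI203 are brighter than those of IRAKi and Control for genes such as H2AC6, H2BC21 and H3C4, and H4C3 stays between 13.07 and 13.61 on all arrays.

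The filter required a level above 4.2 on at least 3 arrays, so a gene could enter through the arrays where it was high. Of the 49 genes, 17 were above this level on all 3 Control arrays. Of these, 13 were higher with Combo and 9 with CPI203. Another 21 were above it on 1 or 2 Control arrays, with 10 higher under Combo and 0 under CPI203. The last 11 were above it on treated arrays only and had to be higher there to enter. With no filter, 32 of all 67 genes were called higher with Combo and 10 with CPI203, and the shares of all genes in that fit are not given here. The 18 genes under the filter had means between 3.489 and 4.083.

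By class, the genes called higher with Combo were 7 of 8 tested H2A, 12 of 15 H2B, 3 of 6 H1, 5 of 10 H3 and 4 of 10 H4 genes. These counts include 8 genes that passed the filter on treated arrays only, namely H2AC7, H2BC6, H2BC17, H2BC18, H2BC20P, H1-6, H3C2 and H4C16. Among genes above the filter level on at least 1 Control array, 6 of 7 H2A, 8 of 11 H2B, 2 of 5 H1, 4 of 8 H3 and 3 of 7 H4 genes were higher with Combo. Their median changes were 1.49 for H2A, 1.45 for H2B, 0.44 for H1, 0.56 for H3 and 0.26 for H4. With CPI203 alone, 2 of 8 H2A, 5 of 15 H2B, 2 of 6 H1, 1 of 10 H3 and 0 of 10 H4 genes were higher. By cluster, 25 of 41 HIST1 genes, 4 of 4 HIST2 genes and 2 of 4 genes outside the clusters were higher with Combo, while neither HIST3 gene passed the filter. Differences between classes or clusters were not tested.

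**Figure D2:**
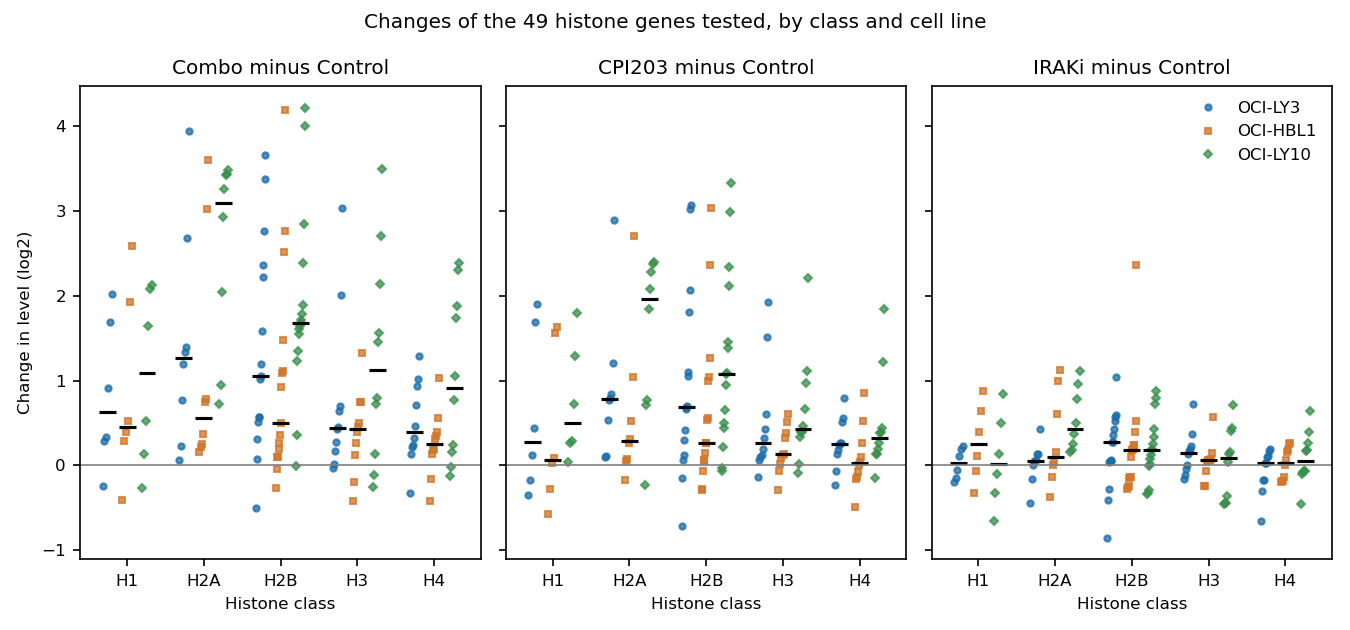
Change in level (log2) of each tested histone gene against the Control array of the same line, by histone class on the x axis, for Combo, CPI203 and IRAKi. Each point is 1 gene in 1 line and bars are medians. With Combo the OCI-LY10 median of H2A is 3.09, against 0.56 in OCI-HBL1.

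Among H2A genes, which encode the partner of H2B in the nucleosome, H2AC6 changed most. H2AC6 levels were 9.22, 8.45 and 10.25 in Combo cells, 8.17, 7.56 and 9.2 in CPI203 cells, 5.12, 5.98 and 7.93 in IRAKi cells, and 5.28, 4.85 and 6.81 in Control cells, in the order OCI-LY3, OCI-HBL1 and OCI-LY10. Every Combo and CPI203 array lay above every Control array. The log2 change was 3.66 with Combo (SE 0.31, 12.6-fold, adjusted p = 8.9e-05) and 2.66 with CPI203 (SE 0.31, 6.32-fold, adjusted p = 0.0018).

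In the same order of lines, H2AC11 levels were 6.95, 4.62 and 8.68 in Combo cells, against 4.28, 3.86 and 5.25 in Control cells. The OCI-HBL1 Combo level lay under the OCI-LY10 Control level, so the groups overlapped. The change with Combo was 2.29 (SE 0.43, adjusted p = 0.003), and with CPI203 it was 1.34 (adjusted p = 0.068). A second H2AC11 probe set, with a mean of 4.688, gave 0.93 with Combo (adjusted p = 0.12). H2AC8 levels were 3.91, 7.56 and 9.74 in Combo cells, against 3.68, 4.53 and 6.48 in Control cells. In OCI-LY3 it lay under the filter level on all 4 arrays, between 3.68 and 3.91, and its change of 2.17 with Combo (SE 0.50, adjusted p = 0.009) rests mainly on the other 2 lines. H2BC8, its partner across the shared promoter, had levels of 4.62, 7.01 and 9.77 in Combo cells, against 4.54, 4.49 and 5.55 in Control cells. It changed by 2.27 (SE 0.67, adjusted p = 0.028), again with little difference in OCI-LY3.

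H2B genes include the most strongly changed genes after H2AC6. H2BC21, of the HIST2 cluster, had levels of 9.58, 6.63 and 10.05 in Combo cells, 9.0, 6.14 and 9.39 in CPI203 cells, 5.98, 5.24 and 6.85 in IRAKi cells, and 5.92, 5.14 and 6.06 in Control cells. All Combo and CPI203 arrays lay above all Control arrays, with OCI-HBL1 the lowest of each group. The change was 3.05 with Combo (SE 0.48, 8.26-fold, adjusted p = 0.0013) and 2.47 with CPI203 (SE 0.48, adjusted p = 0.012). Its other probe sets, with means of 3.674 and 3.697, did not pass the filter. They averaged 3.63 and 3.78 in Combo cells, against 3.66 and 3.59 in Control cells.

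H2BC5 levels were 9.93, 7.76 and 10.40 in Combo cells, 9.57, 7.35 and 9.89 in CPI203 cells, 7.59, 5.23 and 8.43 in IRAKi cells, and 6.55, 4.99 and 7.55 in Control cells. Within each line the order with this probe set was Combo, CPI203, IRAKi, Control. The change was 3.0 with Combo (SE 0.18, adjusted p = 2.4e-05) and 2.57 with CPI203 (SE 0.18, adjusted p = 0.00022). The other H2BC5 probe sets, with means of 7.898 and 7.314, gave 2.29 and 2.19 with Combo and 1.78 and 1.49 with CPI203. With IRAKi they gave 0.26 and 0.45, and in OCI-LY10 their Control level lay above the IRAKi level. H2BC12 levels were 12.39, 11.68 and 13.02 in Combo cells, 11.70, 10.53 and 12.86 in CPI203 cells, 10.23, 9.85 and 11.81 in IRAKi cells, and 9.63, 7.49 and 11.47 in Control cells. Its Control level in OCI-HBL1 was the lowest of the 12 values. The change was 2.84 with Combo (SE 0.39, adjusted p = 0.00073) and 2.16 with CPI203 (SE 0.39, adjusted p = 0.0094). A second H2BC12 probe set, with a mean of 4.754, gave 0.95 with Combo (adjusted p = 0.069) and 1.03 with CPI203 (adjusted p = 0.093).

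**Figure D3:**
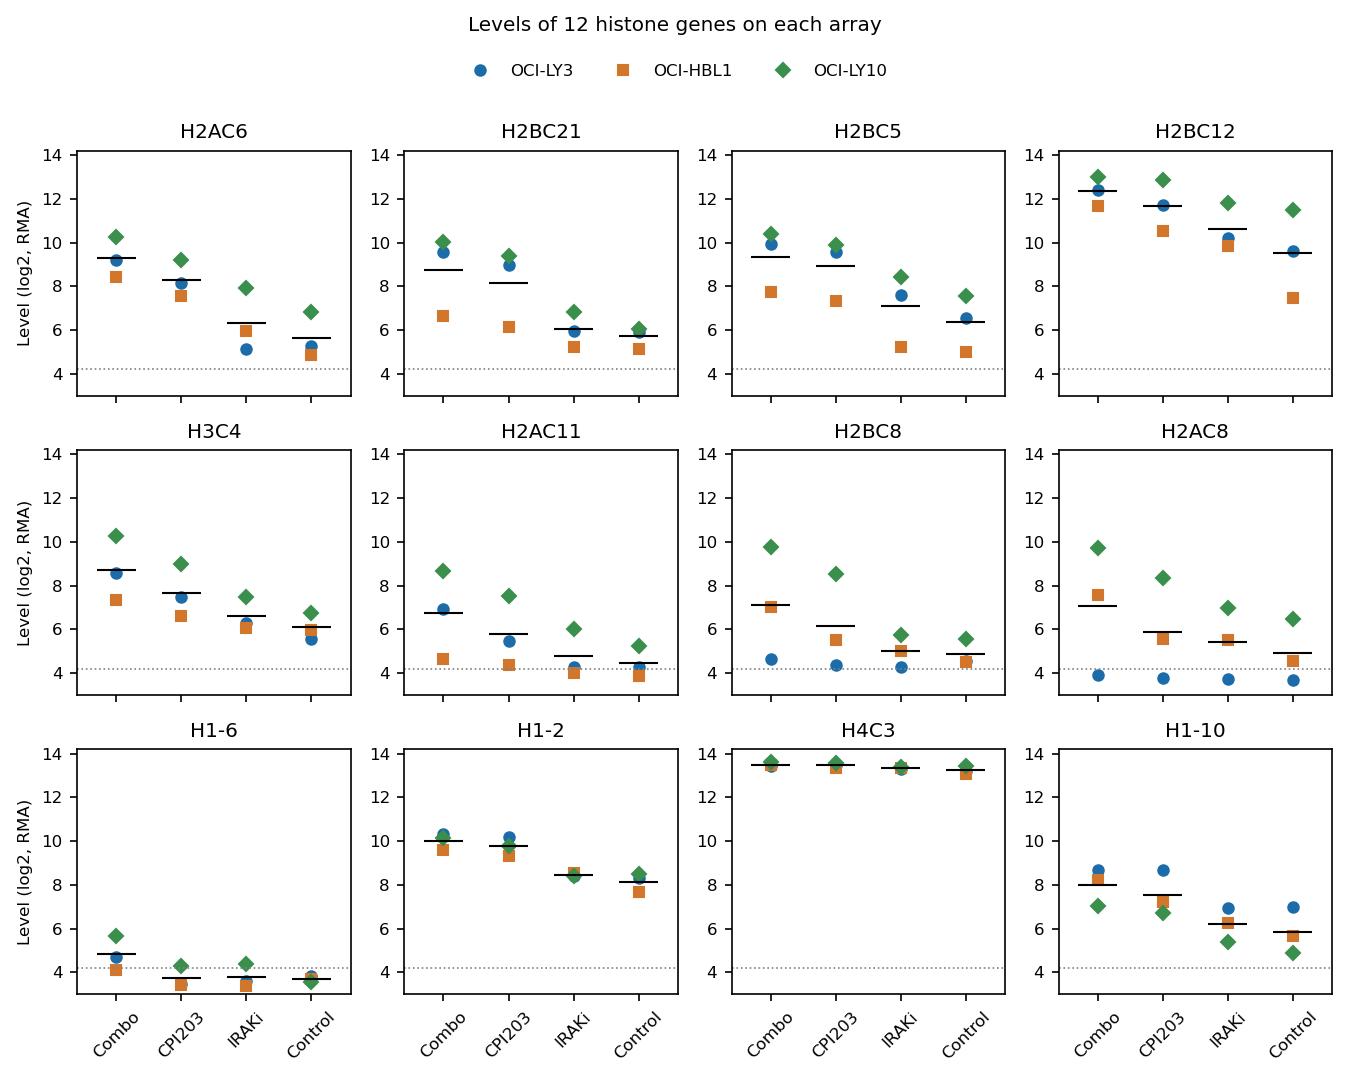
Level (log2, RMA) of 12 histone genes on each array, by treatment on the x axis. Symbols mark the 3 lines, bars are means of 3 arrays, and the dotted line is the filter level of 4.2. H2AC8 in OCI-LY3 stays under that line with every treatment while OCI-LY10 reaches 9.74 with Combo.

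H3 and H4 form the core of the nucleosome. H3C4 levels were 8.59, 7.32 and 10.26 in Combo cells, 7.47, 6.60 and 8.97 in CPI203 cells, 6.28, 6.05 and 7.47 in IRAKi cells, and 5.55, 5.98 and 6.76 in Control cells. All Combo arrays lay above all Control arrays. H3C4 changed by 2.63 with Combo (SE 0.34, adjusted p = 0.00052) and by 1.58 with CPI203 (SE 0.34, adjusted p = 0.017). H4C3 levels were 13.43, 13.46 and 13.61 in Combo cells, against 13.20, 13.07 and 13.45 in Control cells. Its change of 0.26 with Combo (SE 0.10) did not pass the test (adjusted p = 0.08, and 0.0018 to 0.45 over the alternatives), and it was -0.22 after scaling by the poly-A spike-in controls. A second H4C3 probe set, with a mean of 13.2, gave 0.38 with Combo (adjusted p = 0.033), so the call depends on the probe set. Among the H4 genes called with Combo, H4C12 changed by 0.77 (adjusted p = 0.0026). H4C16, which lies outside the clusters, changed by 1.45 (adjusted p = 0.0077), but it passed the filter through Combo and CPI203 arrays only.

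The somatic linker histone gene H1-2 had levels of 10.32, 9.60 and 10.14 in Combo cells, 10.20, 9.31 and 9.78 in CPI203 cells, 8.41, 8.56 and 8.39 in IRAKi cells, and 8.30, 7.67 and 8.49 in Control cells. Its Combo and CPI203 arrays all lay above its IRAKi and Control arrays. The change was 1.86 with Combo (SE 0.20, adjusted p = 0.00023) and 1.61 with CPI203 (SE 0.20, adjusted p = 0.0021).

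H1-10 levels were 8.68, 8.22 and 7.03 in Combo cells, 8.68, 7.19 and 6.70 in CPI203 cells, 6.94, 6.27 and 5.40 in IRAKi cells, and 6.99, 5.64 and 4.90 in Control cells. It was higher with Combo and CPI203 in each line, by 2.14 (SE 0.19, adjusted p = 0.00011) and 1.68 (SE 0.19, adjusted p = 0.0016). A second probe set for H1-10, with a mean of 4.008, gave -0.44 with Combo and -0.59 with CPI203, so its 2 probe sets disagreed. H1-6, a linker gene known from testis, was near the filter level, with 4.72, 4.09 and 5.64 in Combo cells, 3.47, 3.42 and 4.28 in CPI203 cells, and 3.82, 3.70 and 3.56 in Control cells. It changed by 1.13 with Combo (SE 0.26, adjusted p = 0.0092) and by 0.03 with CPI203 (adjusted p = 0.96). H1-6 passed the filter through treated arrays only, 2 of them Combo arrays, so its calls are not independent of the filter.

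Leaving out 1 line at a time changed how many genes were called. Shares of all genes called are not given for these fits or for the other alternatives below. For Combo, 15 genes were called without the OCI-LY3 arrays, 29 without those of OCI-HBL1 and 14 without those of OCI-LY10, and 12 genes were called in all 3 of these fits. Those 12 were H1-2, H1-10, H2AC6, H2BC5, H2BC11, H2BC12, H2BC17, H2BC20P, H2BC21, H3C4, H4C12 and H4C16. Of these, H2BC17, H2BC20P and H4C16 passed the filter on treated arrays only, so their repeated calls are not independent of it. For CPI203, 5 genes were called without the OCI-LY3 arrays, 13 without those of OCI-HBL1 and 5 without those of OCI-LY10. H1-2, H1-10, H2AC6 and H2BC5 were called in all 3. With no term for cell line, 3 genes were called with Combo and 0 with CPI203. Of the 49 chosen probe sets, 24 carry a suffix that marks sequence shared with other transcripts, those of H2AC6, H2BC8, H1-2, H4C3 and H1-10 among them. With all such probe sets left out, a gene was measured by the highest of its remaining probe sets, where it had one. Then 17 of 33 genes were called with Combo and 6 of 33 with CPI203. The poly-A spike-in level of the Combo array was above that of the Control array by 0.734 in OCI-LY3, 0.502 in OCI-LY10 and 0.216 in OCI-HBL1. Scaling to the poly-A spike-ins moved the median change of all genes with Combo to -0.487, and the histone calls were then 20 higher and 3 lower, the 3 being H1-9P, H2BC14 and H4C7, named after their values were seen.

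IRAKi alone gave no called change in histone genes. Against Control, 0 of 49 genes were called with limma, when 0.168% of all genes were called, and 3 of 49 (6.12%) had an unadjusted p under 0.05, against 15.4% of all genes. The count was also 0 under the 9 alternatives that called any gene of the array, and the other 5 called none. The median change of the 49 was 0.09. The 3 genes were H2BC5, H2BC12 and H2BC14. H2BC5 changed by 0.72 (SE 0.18, adjusted p = 0.12) and H2BC12 by 1.1 (SE 0.39, adjusted p = 0.24). H2BC12 was higher by 2.36 in OCI-HBL1, and the change of H2BC14 was -0.43 (adjusted p = 0.27).

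Adding IRAKi to CPI203 was tested directly. Combo was above CPI203 in all 3 lines for 29 of 49 genes, with a median change of 0.40. The counts over the 49 include the 11 genes above the filter level on treated arrays only, whose values are not independent of the filter. The median of those 11 was 0.60. It was 0.29 for the 17 genes above that level on all 3 Control arrays and 0.27 for the 21 above it on 1 or 2. H1-6 was the 1 gene called higher and 0 were lower, when 1.96% of all genes were called higher, and 15 of 49 (30.6%) were higher at an unadjusted p under 0.05, against 8.84% of all genes. H1-6 changed by 1.1 (SE 0.26, adjusted p = 0.048), and its adjusted p was 0.30 with OCI-LY3 left out, 0.10 with OCI-HBL1 left out and 0.13 with OCI-LY10 left out, and lay between 0.018 and 0.92 over all alternatives that gave one. H2AC6 changed by 1.00 (SE 0.31, adjusted p = 0.10) and H3C4 by 1.04 (SE 0.34, adjusted p = 0.12). The chosen H2BC4 probe set changed by 0.56 (adjusted p = 0.40). A second one, with a mean of 5.112, changed by 1.52 (adjusted p = 0.039 in a limma fit of every probe set). In that fit H1-6 had an adjusted p of 0.051. The interaction, which asks whether the combined change departs from the sum of the 2 single changes, was called for 0 of 49 genes with limma, against 0.00762% of all genes. H1-6, at 0.99 (adjusted p = 0.52), was the 1 gene of 49 (2.04%) with an unadjusted p under 0.05, against 8.27% of all genes.

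Combo set against IRAKi compares cells with and without CPI203 that all had IRAKi. The labels give 24 h for Combo and 6 h for IRAKi arrays, so time and CPI203 cannot be told apart here. In this comparison 23 of 49 genes were called higher and 0 lower, against 8.21% of all genes called higher, with a median of 0.79. Of these 23, 22 were among the 31 called against Control. H3C3 was the other, at 0.66 (SE 0.20, adjusted p = 0.044), named after its values were seen. The 23 comprised 10 of the 17 genes above the filter level on all 3 Control arrays and 8 of the 21 above it on 1 or 2. They also included 5 of the 11 above it on treated arrays only, whose calls are not independent of the filter. Without OCI-LY3 6 genes were called, without OCI-LY10 11, and 11 when only the OCI-LY10 IRAKi array was left out. That array had the highest level on the non-specific control probe sets, 4.00, and the other 11 lay between 3.64 and 3.79. The part of this in the result was not tested. The comparisons of Combo with Control and with IRAKi share the Combo arrays.

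The lines differed in level. The OCI-LY10 mean was the highest of the 3 for 42 of 49 genes. OCI-LY3 was highest for 5 genes and OCI-HBL1 for 2. In OCI-LY10 against OCI-HBL1, 31 genes were higher and 1 lower, when 22.8% of all genes were called higher and 25.8% lower. In OCI-LY3 against OCI-LY10, 1 gene was higher and 28 were lower, when 26% and 20.6% of all genes were. In OCI-LY3 against OCI-HBL1, 10 were higher and 4 lower, when 25.1% and 22.2% were. A gene could also pass the filter through the arrays of 1 line. H2BC9, H2BC13, H4C5 and H4C9 did so through OCI-LY10 arrays, so their calls as higher there are not independent of the filter. Among the 17 genes above the filter level on all 3 Control arrays, 12 were higher and 1 lower in OCI-LY10 against OCI-HBL1. Each line mean is over its 4 treatment arrays, so the p-values between lines compare these arrays and not lines at large.

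H1-10 was the gene called lower in OCI-LY10 than in OCI-HBL1. Its mean level was 7.82 in OCI-LY3, 6.01 in OCI-LY10 and 6.83 in OCI-HBL1, and the difference between OCI-LY10 and OCI-HBL1 was -0.82 (SE 0.17, adjusted p = 0.0023). H2AC8 differed most between lines, at -4.11 in OCI-LY3 against OCI-LY10 (SE 0.43, adjusted p = 4.6e-05). H2BC5 was higher in OCI-LY10 than in OCI-HBL1 by 2.73 (SE 0.15, adjusted p = 5.2e-07).

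With Combo, the median change of the 49 genes was 1.65 in OCI-LY10, 0.70 in OCI-LY3 and 0.39 in OCI-HBL1. A rise of at least 1 was seen for 32 genes in OCI-LY10, 20 in OCI-LY3 and 12 in OCI-HBL1, when 6.56%, 6.54% and 3.83% of all tested genes rose that far. With CPI203 the medians in the same order were 0.67, 0.43 and 0.14. The OCI-LY10 change was the largest of the 3 for 34 of 49 genes. With 1 array per line and treatment, the difference between lines in response has no replicate check. The 49 genes include those that passed the filter through OCI-LY10 arrays only.

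The H2A and H2B genes formed 11 pairs that start within 500 bases of each other and are read in opposite directions, with 194 to 248 bases between their starts. Both genes passed the filter in 8 of these 11 pairs. With Combo, both genes were called higher in 6 pairs, 1 gene in 1 pair and neither in 1 pair. With CPI203, both were called in 1 pair, 1 gene in 2 pairs and neither in 5. Over all tested genes, paired or not, 7 of 8 H2A and 12 of 15 H2B genes were called higher with Combo. With CPI203 these were 2 of 8 and 5 of 15. Whether partners were called together more often than other genes was not tested. H2BC17 and H2AC7, called with Combo in these pairs, passed the filter on treated arrays only. Members of a pair could change by different amounts. H2BC21 changed by 3.05 with Combo and H2AC20 by 0.65 (adjusted p = 0.0065). H2AC6 changed by 3.66 and its partner H2BC4 by 1.45 (adjusted p = 0.009). A second H2BC4 probe set, with a mean of 5.112, gave 2.52 (adjusted p = 0.00057), so the gap in that pair depends on the probe set. H2AC8 and H2BC8 changed by 2.17 and 2.27. The difference within a pair compares different probe sets and was not tested.

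**Figure D4:**
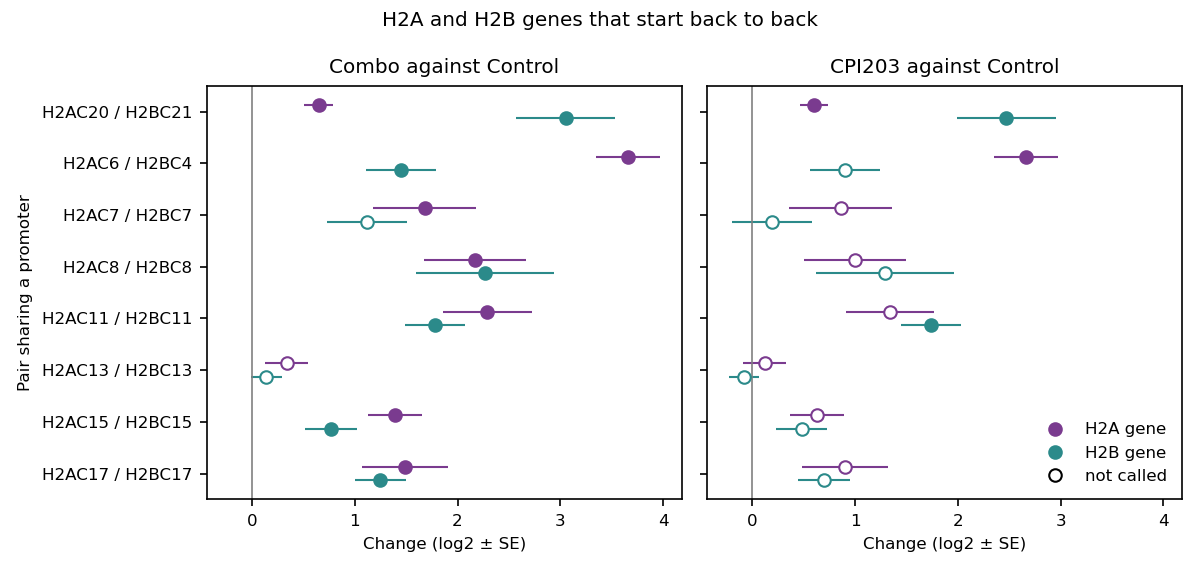
Change (log2, with SE) of the H2A and the H2B gene of 8 pairs that share a promoter region, with Combo on the left and CPI203 on the right. Filled points are called at an adjusted p under 0.05. H2AC13 and H2BC13 are the pair with neither gene called with Combo.

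Genes that make or handle histones were called in both directions, and their shares stand beside 15.4% of all genes called higher and 16.7% called lower with Combo, and 6.92% and 6.21% with CPI203. Of 18 tested factors for histone gene transcription, 5 were higher (27.8%) and 3 lower (16.7%) with Combo, with a median of 0.09. HINFP, the activator of H4 genes, had levels of 9.19, 9.06 and 8.79 in Combo cells, against 8.43, 8.37 and 7.89 in Control cells, and changed by 0.78 (SE 0.11, adjusted p = 0.00094). NFYA, a subunit of a factor that binds CCAAT boxes, changed by 0.80 (adjusted p = 0.00078). Its other subunits did not rise with it by a call. NFYC fell by 0.44 (adjusted p = 0.043) and NFYB changed by 0.23 (adjusted p = 0.18), both named after their values were seen. TBPL1, related to the TATA-binding protein, changed by 0.60 (adjusted p = 0.0027). POU2AF1, a B cell cofactor at octamer sites, fell by 1.08 (adjusted p = 0.0047). With CPI203, NFYA was higher and POU2AF1 lower (5.56% each way).

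Of 30 tested genes of histone mRNA processing and decay, 2 were higher (6.67%) and 8 lower (26.7%) with Combo, with a median of -0.24. MTREX, a helicase of the nuclear exosome, fell by 0.98 (adjusted p = 0.00048) and the Integrator subunit INTS3 by 1.19 (adjusted p = 0.00061). LSM10, of the U7 particle that cuts histone transcripts, fell by 0.72 (adjusted p = 0.0021) and the cleavage scaffold SYMPK by 0.68 (adjusted p = 0.0034). SLBP, the stem-loop binding protein, was higher by 0.34 (adjusted p = 0.04) and was named after its values were seen. With CPI203, 1 gene was higher (3.33%) and 3 were lower (10%).

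Of 8 tested replication-independent histone variants, 5 were higher (62.5%) with Combo and 0 lower, and 2 were higher (25.0%) with CPI203. H2AJ changed by 1.34 (adjusted p = 0.005), H3-4 by 0.69 (adjusted p = 0.0024), H3-3B by 0.53 (adjusted p = 0.003) and H2AX, the variant phosphorylated at DNA breaks, by 0.47 (adjusted p = 0.019). H2AJ levels were 6.38, 5.09 and 7.03 in Combo cells, against 4.48, 4.82 and 5.19 in Control cells, which overlapped. Of 25 tested histone chaperones, 4 were higher (16.0%) and 6 lower (24.0%) with Combo, and 1 was higher (4.0%) with CPI203, shares of higher genes near or below those of all genes. UBN1, of the HIRA complex, changed by 0.80 (adjusted p = 0.00066) and DNAJC9 by 0.55 (adjusted p = 0.0082), while DAXX fell by 0.87 (adjusted p = 0.0023) and SUPT16H by 0.46 (adjusted p = 0.0087).

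Of 24 tested genes of S phase, 1 was higher (4.17%) and 10 lower (41.7%) with Combo, and 1 was higher (4.17%) and 5 lower (20.8%) with CPI203, with medians of -0.21 and -0.25. MCM2, a subunit of the replicative helicase, had levels of 8.99, 9.85 and 8.84 in Combo cells, against 10.30, 10.50 and 9.97 in Control cells. All its Combo arrays lay below all its Control arrays, and it fell by 1.03 (SE 0.14, adjusted p = 0.00072). POLE2 fell by 1.5 (adjusted p = 0.00028), GINS1 by 0.72 (adjusted p = 0.001) and MCM7 by 0.60 (adjusted p = 0.0031). Whether a change in the share of cells in S phase took part in the histone values was not tested.

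**Figure D5:**
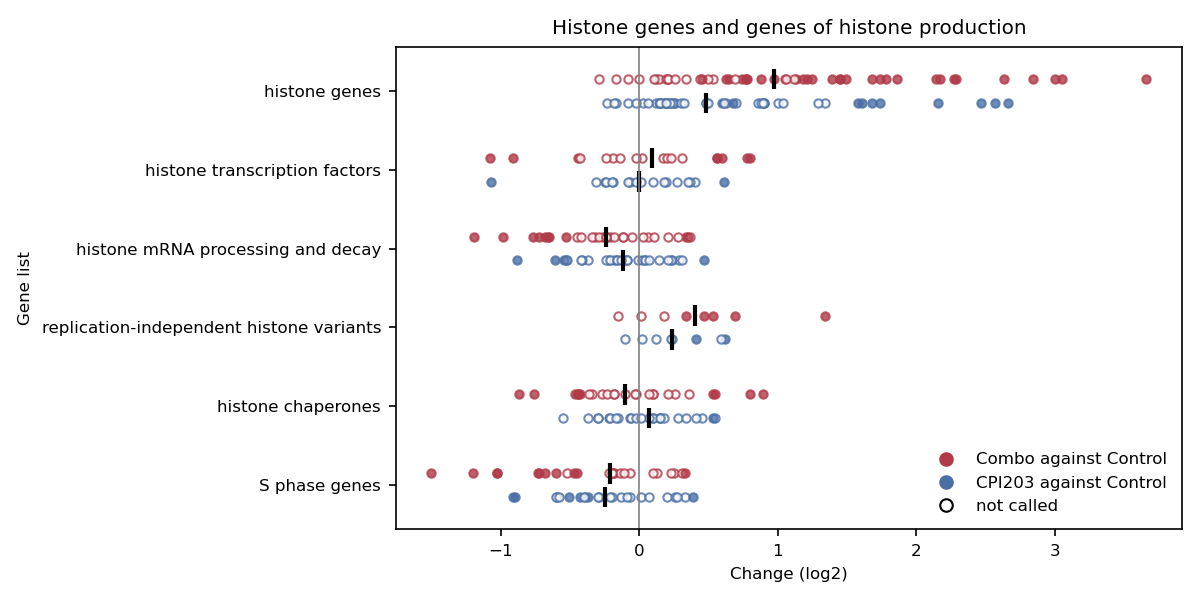
Change (log2) of the 49 tested histone genes and of 5 lists of genes of histone production, with Combo in red above CPI203 in blue. Each point is 1 gene, filled where called, and bars are medians. The histone genes with Combo have a median of 0.97 and the S phase genes one of -0.21.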

How the data were processed

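Expression was measured on Affymetrix arrays from 150 ng of total RNA per sample. The deposited table holds log2 values made by the authors with RMA in Affymetrix Expression Console 1.1, per the submitters' processing notes. It has 49386 probe sets and 12 arrays. Probe sets with 1 gene (45253) were named from the platform annotation through gene identifiers, and per gene the probe set with the highest mean was kept. Genes above the 40th percentile level of 4.2 on at least 3 arrays (13120) were tested. The members and lists were chosen with earlier results of these data known.

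Treatments were compared with limma 3.58.1 in R 4.3.3, with cell line as a block because the same line appears under every treatment, and p-values were adjusted over all tested genes by the Benjamini-Hochberg method (threshold 0.05). The model left 6 residual degrees of freedom. The number of arrays limits the precision. The fit was tested on simulated data. Genes named were the 8 with the largest Combo change that was called and ran one way in all lines, any member called in the other tests up to 6 each, the member with the highest mean of each class, and the linker genes H1-2 and H1-10. A further item of this rule is not reported here. Of the lists, up to 4 called genes with the lowest adjusted p were named. Promoters were read from RefSeq. The 14 alternatives covered the probe set choice, the filter, the scaling, the model and the arrays used.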

Additional observations from a re-analysis of the deposited data

Results flagged for a closer look

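For 5 genes, every treated array of 1 line lay on the opposite side of its Control array from every treated array of another line, and the differences were not tested. The values are means of the 3 treated arrays minus Control. H1-9P gave 0.10 in OCI-LY10 and -0.19 in OCI-LY3. H2BC13 gave 0.14 in OCI-LY3 and -0.23 in OCI-HBL1. H2BC7 gave 0.70 in OCI-LY3, 0.91 in OCI-LY10 and -0.19 in OCI-HBL1. H3C11 gave 0.30 in OCI-HBL1, 0.32 in OCI-LY10 and -0.09 in OCI-LY3. H4C4 gave 0.49 in OCI-LY3 and -0.28 in OCI-HBL1.

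Probe sets that the annotation assigns to several histone genes were not used for any gene, and 3 of them changed with Combo against Control. A probe set shared by H2AC18 and H2AC19 changed by 2.19 (adjusted p = 0.00011) and another of the same genes by 2.15 (adjusted p = 4.4e-05). The first had levels of 12.85, 11.29 and 12.26 in Combo cells, against 10.53, 9.13 and 10.17 in Control cells, in the order OCI-LY3, OCI-HBL1 and OCI-LY10. A probe set shared by H4C14 and H4C15 changed by 1.77 (adjusted p = 0.0025). Which gene gave the signal cannot be told apart from these probe sets.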

How the results depend on the processing

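Counts of called histone genes moved with the block for cell line. With no replicate block, 0 were called for CPI203 against Control, 3 for Combo against Control, 0 for Combo against CPI203 and 0 for Combo against IRAKi. Leaving out 1 line each gave 5 to 13 for CPI203, 14 to 29 for Combo, 0 to 0 for Combo against CPI203 and 6 to 23 for Combo against IRAKi. Without probe sets of shared sequence, 6 were called for CPI203 and 17 for Combo. A filter at the 60th percentile left 19 histone genes, of which 19 were called for Combo and 0 for Combo against CPI203. It gave 17 for OCI-LY10 against OCI-HBL1 and 16 for OCI-LY3 against OCI-LY10. Its level was 5.70, and a gene could again enter through the arrays where it was high. H3C10, H2BC4 and H2BC11 were above it on Combo and CPI203 arrays only. H2AC11, H2BC8 and H2BC9 were above it on treated arrays only, and H2BC9 and H3C12 on OCI-LY10 arrays only. Calls of these genes as higher on such arrays are not independent of the filter. Shares of all genes called under the alternatives are not given here, so these counts have no background beside them. For Combo against CPI203, averaging the probe sets of a gene gave 3, while no filter, cyclic loess, poly-A scaling and leaving out the OCI-LY10 IRAKi array gave 0 each. Leaving out that array gave 11 for Combo against IRAKi. Of 815 values of the 12 named genes under the 14 alternatives, 723 kept their direction and side of the threshold, 62 lost the call, 15 gained it and 15 changed sign. Scaled to poly-A spike-ins, the sign changed for H1-6 (CPI203 -0.28, IRAKi -0.13), H2BC8 (IRAKi -0.09) and H4C3 (CPI203 -0.09, IRAKi -0.14, Combo -0.22, Combo against CPI203 -0.14, Combo against IRAKi -0.09). With the second probe set of H1-10, the values were -0.59 for CPI203, -0.31 for IRAKi, -0.44 for Combo and -0.13 for Combo against IRAKi. Leaving out a line gave -0.31 to 0.22 for H1-6 with CPI203, -0.27 to 0.32 for H1-6 with IRAKi and -0.05 to 0.35 for H2BC8 with IRAKi. The causes were not tested.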
